A study of Mus musculus with 8 samples.

Results

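The serpins are a superfamily of proteins that share 1 fold, and this account covers their genes in pancreatic islets of obese and lean mice. Members were all rows whose symbol starts with Serpin and that hold a value, without Serpini2: 48 genes of 17401 with a value. The symbols of 13 further serpins were listed without a value in any library and are not members. Of the 48, 11 reached 1 FPKM (fragments per kilobase of transcript, scaled to library depth) in at least 4 of the 8 libraries and were tested, among 11747 tested genes in all. RNA came from hand-picked islets of C57BL/6 mice at 12 weeks of age, with 4 libraries labelled ob/+ and 4 labelled ob/ob. The ob allele is a loss-of-function mutation of Lep, the gene of the fat cell hormone leptin. The ob/+ mice carry 1 such allele and served as controls, and ob/ob mice make no functional leptin and become obese and insulin resistant. Lep itself had no value in any library, so its transcript gives no check of the genotype. Whether a library stands for 1 mouse or a pool is not in the labels, and the p-values reflect only how far these 8 libraries scatter, some of which may be technical.

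Most serpins trap a serine protease with an exposed reactive centre loop, which the protease cuts and is then locked to in an inactive complex. Some members have lost this activity and act as hormone carriers, chaperones or signalling proteins. Clade A holds plasma proteins made mainly by the liver, clade B holds mostly intracellular inhibitors, and the small clades C to I include regulators of clotting, fibrinolysis, complement and collagen folding.

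Across the tested serpins 2 rose and 2 fell in ob/ob islets, and 7 did not pass the test (limma on log2(FPKM + 1), Benjamini-Hochberg adjusted p under 0.05 over all tested genes). The background was 18.8% of all tested genes called, 8.21% as higher and 10.6% as lower. Counts from the gene lists below are to be read beside these shares. Serpina7, the thyroxine-binding globulin that carries thyroid hormone, rose 9.91-fold in mean FPKM, and Serpini1, the nerve and endocrine cell inhibitor neuroserpin, rose 2.08-fold. Serpinf1, the secreted non-inhibitory serpin known as pigment epithelium-derived factor, fell 3.82-fold. Serpinh1, the collagen chaperone HSP47 of the endoplasmic reticulum, fell 1.34-fold, by a call close to the threshold. The groups of 5 of the 11 did not overlap (these except Serpinh1, with Serpine2 and Serpinb6a), beside 20.5% of all tested genes. Libraries were also scaled to their sum without markers of acinar cells, the enzyme-making exocrine cells around islets. Under that scaling Serping1, Serpine2, Serpinb9 and Serpina3n also passed as lower. There 6 of 11 serpins and 7139 of 11778 tested genes were called lower, and the median of all tested genes was -0.33. These added calls therefore do not set the serpins apart from other genes.

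The stretches before the start sites of these 4 genes are shown because they are the serpins that changed. They are the 250 bases upstream of a RefSeq start (GRCm38.p6), written along the gene's strand. For Serpina7 that is chrX:139085237-139085486 on the minus strand, and for Serpini1 chr3:75557243-75557492 on the plus strand. Serpinf1 is shown at chr11:75422624-75422873 and Serpinh1 at chr7:99353240-99353489, both on the minus strand. Capitals mark exact matches on either strand to any of 5 motifs. The letters TATAAA stand for the box bound by the general transcription machinery, and CCAAT for the box bound by the factor NF-Y. The letters GGGCGG stand for the box bound by Sp1 and related factors, and GTTAAT for the half-site of HNF1, a factor of liver and islets. A paired heat shock element was searched for as GAANNTTC. No marked matches overlap in these 4 stretches.
Serpina7: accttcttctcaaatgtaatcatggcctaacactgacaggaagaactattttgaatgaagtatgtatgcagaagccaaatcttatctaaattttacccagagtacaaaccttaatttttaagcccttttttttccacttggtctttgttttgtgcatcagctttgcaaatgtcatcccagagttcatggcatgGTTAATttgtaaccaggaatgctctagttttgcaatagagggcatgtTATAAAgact
Serpini1: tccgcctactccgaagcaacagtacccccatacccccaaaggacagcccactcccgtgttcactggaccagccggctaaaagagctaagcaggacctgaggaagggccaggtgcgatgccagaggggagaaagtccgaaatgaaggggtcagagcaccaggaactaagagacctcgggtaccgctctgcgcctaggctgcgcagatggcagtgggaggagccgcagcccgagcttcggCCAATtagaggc
Serpinf1: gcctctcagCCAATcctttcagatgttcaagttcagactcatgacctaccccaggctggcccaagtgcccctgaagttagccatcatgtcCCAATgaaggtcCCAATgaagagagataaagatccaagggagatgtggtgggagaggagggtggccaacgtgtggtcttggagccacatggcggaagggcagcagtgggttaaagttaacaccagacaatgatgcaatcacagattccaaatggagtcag
Serpinh1: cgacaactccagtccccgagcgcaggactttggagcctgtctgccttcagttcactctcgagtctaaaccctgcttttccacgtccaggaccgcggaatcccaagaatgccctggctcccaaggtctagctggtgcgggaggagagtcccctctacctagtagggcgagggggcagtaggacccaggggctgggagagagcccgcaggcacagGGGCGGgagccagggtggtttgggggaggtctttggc
The Serpina7 stretch held TATAAA and GTTAAT, which stood in 12.4% and 6.43% of 32851 promoter stretches of this length. Serpini1 held 1 CCAAT and Serpinf1 held 3, where 33.85% of all stretches held at least 1. Serpinh1 held 1 GGGCGG, as 32.7% of all did, and none of the 4 held GAANNTTC (6.69% of all). RefSeq entries matched 8 of the 11 tested serpins. These matches describe the letters in the windows shown and nothing else was measured there.

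The serpins of an islet library were few and unequal in level. The 6 most abundant (Serpina10, Serping1, Serpinb6a, Serpina7, Serpini1 and Serpinh1) made 90.6% of the summed mean serpin FPKM. In ob/+ islets the order by mean FPKM was Serpina10, Serping1, Serpinb6a, Serpinh1, Serpini1, Serpina7, Serpine2, Serpinb1a, Serpinb9, Serpinf1 and Serpina3n. In ob/ob islets Serpina7 stood second after Serpina10, and the ranges of these 2 genes overlapped. Serping1 and Serpinb6a overlapped each other in ob/ob. In ob/+ Serpina10 overlapped Serping1, and every pair of neighbours in the order from Serpinh1 to Serpinf1 overlapped. The order of these neighbours is thus not fixed beyond their spread. All 48 serpins together summed to 203 to 220 FPKM in the ob/+ libraries and to 266 to 338 FPKM in the ob/ob libraries. Without Serpina7 and Serpini1 the sums were 187 to 194 and 175 to 216, which overlap.

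**Figure D1:**
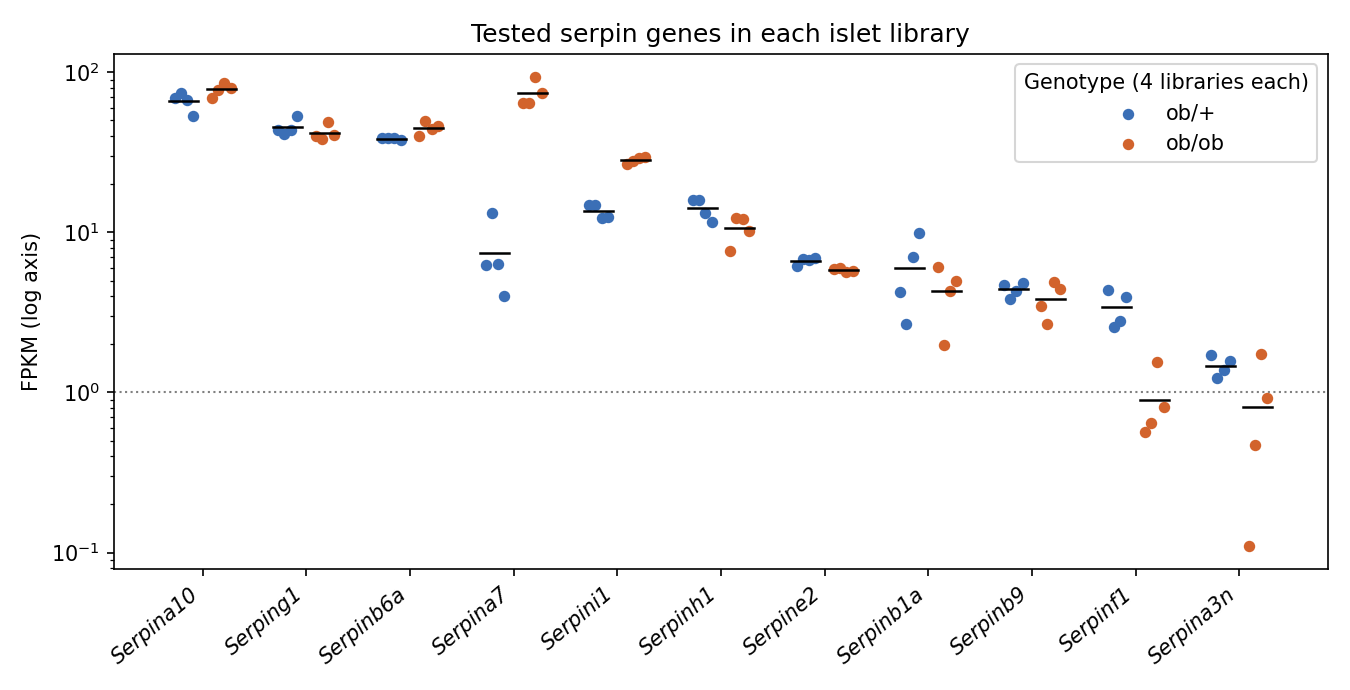
FPKM of the 11 tested serpins (log axis) in each library, 4 points per genotype with the mean as a black line; the dotted line marks the 1 FPKM filter. The 4 ob/ob points of Serpina7 and of Serpini1 lie above all ob/+ points, and those of Serpinf1 lie below them.

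Serpina7 lies on chromosome X (GRCm38, 139079257 to 139085236, minus strand, ENSMUSG00000031271.14). The protein binds thyroxine and triiodothyronine in blood and does not inhibit proteases. It was at 6.27, 13.21, 6.38 and 4 FPKM in ob/+ libraries 1 to 4 and at 64.15, 64.21, 92.85 and 74.69 in ob/ob libraries 1 to 4. The lowest ob/ob library was thus well above the highest ob/+ library, ob/+ 2. Means were 7.47 ± 3.98 and 74.0 ± 13.5 FPKM (SD, n = 4 each), and the log2 fold change was 3.24 ± 0.33 (SE; limma adjusted p = 0.000711). Only 0.0511% of tested genes had a larger rise. The call held in each of 21 other ways of processing, with log2 fold changes of 2.84 to 3.52 and adjusted p up to 0.0136.

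Liver is the main known source of thyroxine-binding globulin, so hepatocyte markers were read beside it. Albumin (Alb) was between 0.11 and 0.70 FPKM and Apoa1 between 0 and 0.54 in the 8 libraries. Of 11 hepatocyte markers with a value 3 were tested, and these 3 (Apoa2, Tat and Ttr) were higher in ob/ob. The summed level of the 11 markers with a value was 1268 to 1633 FPKM in ob/+ and 1587 to 2002 in ob/ob. Nearly all of it was transthyretin (Ttr), another thyroxine carrier that islet alpha cells are known to make. Beta cell markers took 45.1% to 58.3% of summed FPKM in ob/+ and 61.9% to 70.7% in ob/ob. Of 10 tested beta cell markers 2 passed as higher (Ins2 and Iapp) and 4 as lower (Slc2a2, Mafa, Ucn3 and Slc30a8) by limma. The median log2 fold change of these markers was -0.39. The part of beta cells in the rise of Serpina7 was not tested. In bulk RNA fewer cells of a type and less RNA per cell cannot be told apart.

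The genes beside Serpina7 were looked up after its values were seen. The nearest, 4930513O06Rik, starts 1007 bases away on the opposite strand. It was at 0.15, 0.07, 0.07 and 0.07 FPKM in ob/+ 1 to 4 and at 0.65, 0.36, 0.22 and 0.44 in ob/ob 1 to 4, below the filter. Its groups did not overlap, which held for 13% of genes below the filter. The next gene on that side, Mum1l1, lies 124806 bases from Serpina7 and rose from 9.25 ± 3.08 to 18.25 ± 0.922 FPKM (SD, n = 4 each), a log2 difference of 0.97 ± 0.21 (SE; limma adjusted p = 0.00784). On the other side Nrk and Il1rapl2 were at or under 0.015 FPKM on average in both genotypes.

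Serpini1 lies on chromosome 3 (GRCm38, 75557547 to 75643495, plus strand, ENSMUSG00000027834.15). Neuroserpin is a secreted inhibitor of tissue plasminogen activator, known from neurons and neuroendocrine cells. It was at 14.80, 14.90, 12.35 and 12.50 FPKM in ob/+ 1 to 4 and at 26.67, 27.73, 29.12 and 29.77 in ob/ob 1 to 4. Within each genotype the libraries lay close together, and the groups were well apart. Means were 13.6 ± 1.40 and 28.3 ± 1.39 FPKM (SD, n = 4 each), a log2 difference of 1.01 ± 0.11 (SE; limma adjusted p = 1.39e-07). The call held in each of 21 other ways of processing, with log2 fold changes of 0.72 to 1.12.

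Its known target Plat, tissue plasminogen activator, was at 2.11 to 3.14 FPKM in ob/+ and 2.95 to 3.10 in ob/ob. The difference in Plat did not pass the test (log2 fold change 0.13, 95% interval -0.12 to 0.39, limma adjusted p = 0.489). Pdcd10 starts 691 bases from Serpini1 on the opposite strand, and it was at 13.8 ± 0.330 FPKM in ob/+ and 12.5 ± 0.822 in ob/ob (SD, n = 4 each; limma adjusted p = 0.404). Neuron and Schwann cell markers mostly went the other way from Serpini1. Of 7 tested 5 passed as lower in ob/ob (71.4%) and none as higher by limma, beside 10.6% and 8.21% of all tested genes. At an unadjusted p under 0.05, 1 of these markers was higher and 5 were lower. Their summed level was 79.2 to 104.8 FPKM in ob/+ and 47.1 to 55.3 in ob/ob, and their part in the change of Serpini1 was not tested.

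**Figure D2:**
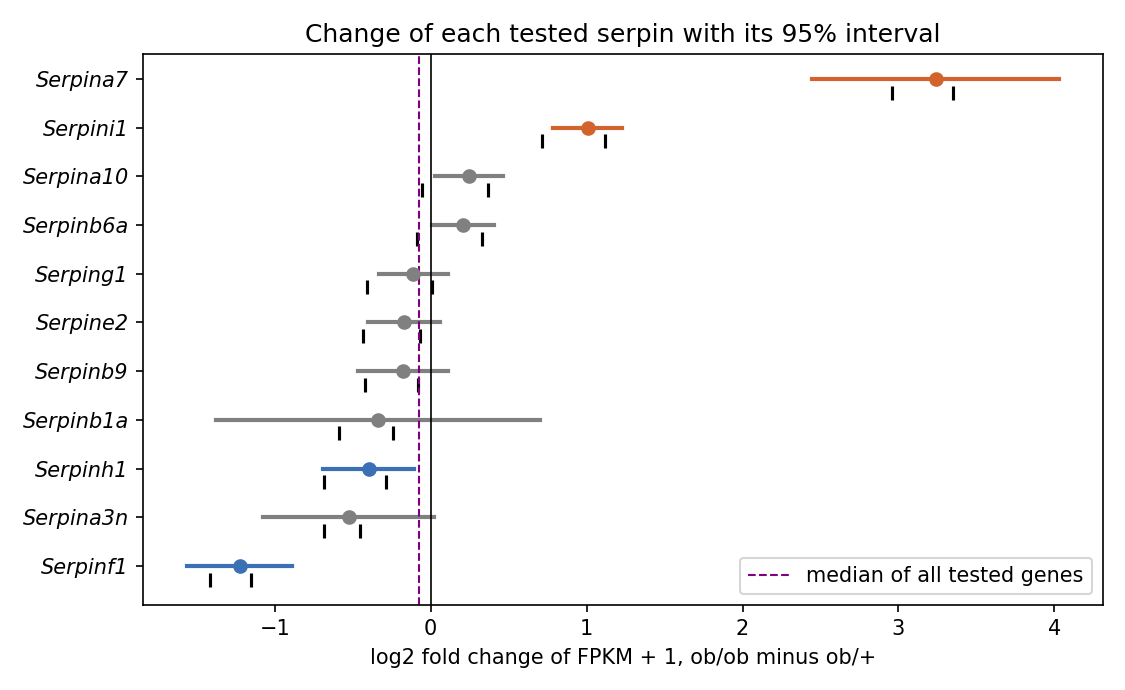
Log2 fold change of FPKM + 1 (ob/ob minus ob/+) of each tested serpin with its 95% interval; orange passed as higher, blue as lower, grey did not pass. Black ticks under each bar give the lowest and highest value over 4 other library scalings, and the dashed line is the median of all tested genes at -0.07; the ticks of Serpina10, Serpinb6a and Serping1 lie on both sides of 0.

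Serpinf1 lies on chromosome 11 (GRCm38, 75409769 to 75422701, minus strand, ENSMUSG00000000753.15). Its protein is an anti-angiogenic and neurotrophic factor made by fibroblasts, fat and other stromal cells. It was at 4.34, 2.55, 2.80 and 3.93 FPKM in ob/+ 1 to 4 and at 0.57, 0.64, 1.55 and 0.81 in ob/ob 1 to 4. All ob/ob libraries were below all ob/+ libraries, with ob/ob 3 the nearest. Means were 3.41 ± 0.865 and 0.893 ± 0.450 FPKM (SD, n = 4 each), a log2 difference of -1.23 ± 0.16 (SE; limma adjusted p = 1.26e-05). Only 0.860% of tested genes had a larger fall. The 4 ob/+ libraries alone met the filter, and among ob/ob only ob/ob 3 reached 1 FPKM. Entry to the test thus rested on the group where Serpinf1 was high. With no filter on low values it also passed as lower (log2 fold change -1.23, limma adjusted p = 0.000795). The call held in each of 21 other ways of processing, this one included, with log2 fold changes of -1.88 (pseudocount 0.1) to -1.08.

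Stromal cell markers were read beside it. Among 12 tested markers of fibroblasts, stellate cells and pericytes 4 fell (Col1a1, Col1a2, Col3a1 and Thy1) and 2 rose, the pericyte genes Rgs5 and Acta2. Decorin (Dcn), a matrix proteoglycan of fibroblasts, was at 17.42, 14.40, 16.82 and 20.88 FPKM in ob/+ and at 2.08, 3.83, 12.94 and 9.92 in ob/ob, and it did not pass the test (limma adjusted p = 0.118). The library highest in Dcn among ob/ob, ob/ob 3, was also the one highest in Serpinf1. In ob/+ this did not hold, since Dcn was highest in ob/+ 4 and Serpinf1 in ob/+ 1. The summed level of all 14 markers was 94.96 to 105.29 FPKM in ob/+ and 76.21 to 108.25 in ob/ob, which overlap. Of 3 tested adipocyte markers Lpl and Pparg fell and Fabp4 did not pass. The 8 adipocyte markers with a value summed to 39.7 to 45.9 FPKM in ob/+ and 20.4 to 32.1 in ob/ob, with the defining genes Adipoq and Plin1 at or under 0.05 FPKM in each library. The part of stromal or fat cells in the fall of Serpinf1 was not tested. Its close neighbour Serpinf2, the plasmin inhibitor alpha-2-antiplasmin, lies 9031 bases away and was at or under 0.13 FPKM throughout.

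Serpinh1 lies on chromosome 7 (GRCm38, 99345376 to 99353239, minus strand, ENSMUSG00000070436.12). HSP47 binds newly made procollagen in the endoplasmic reticulum and is known to be under heat shock control. It was at 15.89, 16.01, 13.16 and 11.62 FPKM in ob/+ 1 to 4 and at 7.65, 12.38, 12.03 and 10.26 in ob/ob 1 to 4. The groups overlapped: ob/ob 2 and ob/ob 3 were above ob/+ 4. Means were 14.2 ± 2.15 and 10.6 ± 2.16 FPKM (SD, n = 4 each), a log2 difference of -0.40 ± 0.14 (SE; limma adjusted p = 0.0495). The call ended in 12 of 21 other ways of processing. It ended without ob/+ 1 (adjusted p = 0.170), ob/+ 2 (0.131), ob/+ 3 (0.0598), ob/ob 1 (0.233) or ob/ob 4 (0.115), all by limma. With the acinar share as a covariate the log2 fold change was -0.72 (limma adjusted p = 0.000414), and with scaling without the 10 most abundant genes it was -0.29 (0.220).

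Of 21 tested genes listed as collagens and partners of collagen synthesis 6 fell (28.6%) and 1 rose (4.76%), beside 10.6% and 8.21% of all tested genes. Their median log2 fold change was -0.03 beside -0.07 over all tested genes. The fallers were all collagens: Col1a1, Col1a2, Col3a1, Col6a1, Col6a2 and Col15a1. Col1a1 was at 5.80 ± 1.43 FPKM in ob/+ and 1.54 ± 0.821 in ob/ob (SD, n = 4 each), a log2 difference of -1.45 ± 0.21 (SE; limma adjusted p = 0.000297). The gene that rose was P4hb, a disulfide isomerase and prolyl hydroxylase subunit (0.49 ± 0.09 SE). Among 15 heat shock genes 1 fell (Cryab) and none rose by limma, with 2 higher and 3 lower at an unadjusted p under 0.05. Hspa1a, the inducible HSP70, was at 9.48, 7.71, 6.23 and 2.73 FPKM in ob/+ and at 82.45, 136.36, 39.07 and 12.84 in ob/ob (limma adjusted p = 0.0525). Every ob/ob library of Hspa1a was above every ob/+ library, a lack of overlap found in 20.5% of all tested genes in either direction. The part of heat shock control in the change of Serpinh1 was not tested.

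Serpina10 was the most abundant serpin of these islets. Its protein is the protein Z-dependent inhibitor of clotting factor X, known mainly from liver. The gene (chromosome 12, 103614786 to 103631444, minus strand) was at 68.85, 74.66, 66.67 and 53.23 FPKM in ob/+ 1 to 4 and at 69.35, 77.29, 85.58 and 79.96 in ob/ob 1 to 4. The groups overlapped, and the log2 fold change of 0.25 (95% interval 0.03 to 0.47) had a limma adjusted p of 0.106. It passed as higher with median centring (limma adjusted p = 0.00542), upper-quartile scaling (0.00576) and scaling without the 10 most abundant genes (0.0314), and its sign turned (-0.05) with scaling without the acinar markers.

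Serpina10 stands at 1 end of the large clade A cluster on chromosome 12, which holds 19 of the 20 clade A members. Its direct neighbours Serpina6, the cortisol carrier, and Serpina16 were at or under 0.04 FPKM in each library. Farther along, Serpina9 and Serpina11 were at or under 0.13 FPKM, and the Serpina1 genes (alpha-1-antitrypsin) and Serpina3 genes (antichymotrypsin) were at or under 1.75 FPKM. Only Serpina10 and, at the far end, Serpina3n passed the filter.

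**Figure D3:**
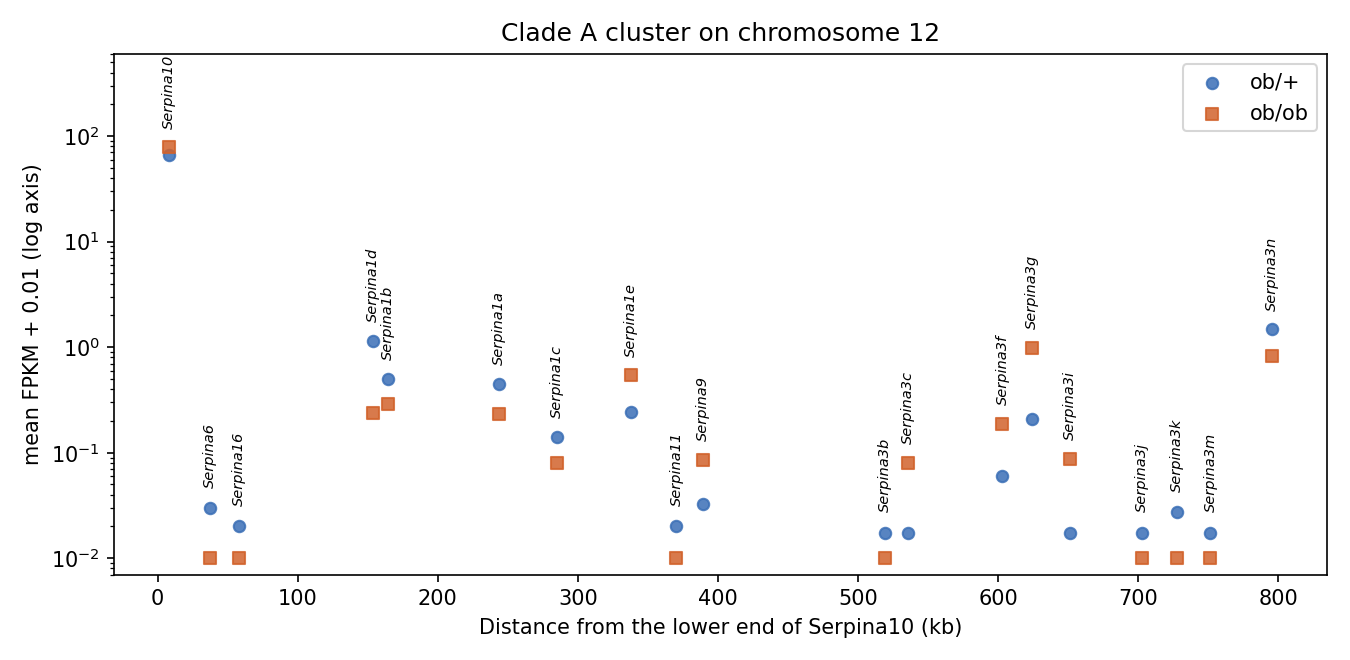
Mean FPKM + 0.01 (log axis) of the 19 clade A serpins on chromosome 12 against the distance of the gene's middle from the lower end of Serpina10 in kb; circles are ob/+ and squares ob/ob, 4 libraries each. Serpina10 stands above all other genes of the cluster in both genotypes; Serpina1d is higher in ob/+ and Serpina3g in ob/ob.

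Serpina3n, an antichymotrypsin and granzyme inhibitor of the acute phase, was at 1.71, 1.23, 1.38 and 1.57 FPKM in ob/+ 1 to 4 and at 0.11, 0.47, 1.75 and 0.92 in ob/ob 1 to 4. The ob/ob libraries spread widely around the narrow ob/+ group, and the test did not pass (log2 fold change -0.53, 95% interval -1.07 to 0.02, limma adjusted p = 0.177). Without ob/ob 3, the highest of all, it passed as lower (log2 fold change -0.75, limma adjusted p = 0.000653). In that fit Serpina3n was tested only because its 4 ob/+ libraries reached 1 FPKM, so this call is no support for a fall. Among 10 tested genes of the acute phase and STAT3 response Socs3 rose, Il6st fell and 8 did not pass.

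The 5 Serpina1 genes with a value were near the limit of these data. Serpina1d was at 0.83, 1.36, 1.24 and 1.10 FPKM in ob/+ 1 to 4 and at 0.16, 0.22, 0.14 and 0.39 in ob/ob 1 to 4, just under the filter. Its groups did not overlap, and it was 1 of 37 members below the filter of which that was true, beside 13% of all genes below the filter. With a filter of 0.5 FPKM in 4 libraries it was tested only because its 4 ob/+ libraries cleared that level, so its call there (log2 fold change -0.79, limma adjusted p = 2.55e-05) is no support for a fall. Serpina1a, Serpina1b, Serpina1c and Serpina1e overlapped between genotypes and were at or under 1.26 FPKM. These copies are near-identical: between 29.5% and 74.2% of the 50-base windows of each gene's GENCODE transcripts also occur in another gene, so their separate values are uncertain. Serpina1d overlaps Serpina1b on the same strand.

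Serpina3g, an inhibitor of cysteine cathepsins known from T cells, was at 0.54, 0, 0.26 and 0 FPKM in ob/+ 1 to 4 and at 0, 1.09, 1.66 and 1.13 in ob/ob 1 to 4. It was high in 3 ob/ob libraries and listed at 0 in ob/ob 1. Summed lymphocyte markers were at 18.3, 8.78, 19.2 and 12.0 FPKM in ob/+ and at 2.66, 11.52, 34.24 and 20.33 in ob/ob, with the B cell gene Cd79a as the largest part on average. The ob/ob libraries stood in the same order for Serpina3g and for these markers, lowest in ob/ob 1 and highest in ob/ob 3. In ob/+ the orders differed, with Serpina3g highest in ob/+ 1 and the markers highest in ob/+ 3. Of the T cell genes, Cd3e reached 0.57 FPKM at most. Serpina3b, Serpina3c, Serpina3f, Serpina3i, Serpina3j, Serpina3k and Serpina3m were at or under 0.31 FPKM.

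Clade B was led by Serpinb6a, an intracellular inhibitor of cathepsin G and similar proteases (chromosome 13, 33917918 to 34002794, minus strand). It was at 38.86, 38.59, 38.93 and 37.86 FPKM in ob/+ 1 to 4 and at 39.82, 49.42, 44.19 and 46.06 in ob/ob 1 to 4. Every ob/ob library was above every ob/+ library, as in 20.5% of tested genes, in either direction. The log2 fold change of 0.21 (95% interval 0.01 to 0.41) did not pass (limma adjusted p = 0.138). It passed as higher with median centring (limma adjusted p = 0.0350), upper-quartile scaling (0.0303) and without both ob/+ 4 and ob/ob 1 (0.0247), and its sign turned (-0.09) with scaling without the acinar markers. Serpinb6a overlaps Ripk1 and Nqo2 on the other strand, and the strand setting of the counting is not given in the sources used here, so reads of these genes may not be told apart.

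Serpinb1a, an intracellular inhibitor of neutrophil elastase-type proteases, is the mouse gene of serpin B1, which has been described as a liver-made factor that raises beta cell replication in insulin-resistant mice. It was at 4.22, 2.69, 6.98 and 9.97 FPKM in ob/+ 1 to 4 and at 6.07, 1.98, 4.28 and 4.96 in ob/ob 1 to 4. The groups overlapped and the test did not pass (log2 fold change -0.34, 95% interval -1.38 to 0.70, limma adjusted p = 0.647). Acinar markers, from the enzyme-making cells around the islets, took 10.7%, 7.67%, 14.1% and 26.0% of summed FPKM in ob/+ 1 to 4 and 11.6%, 3.33%, 6.47% and 6.57% in ob/ob 1 to 4. Within each genotype the 4 libraries stood in the same order for Serpinb1a and for acinar markers. With the acinar share as a covariate, Serpinb1a passed as higher in ob/ob (log2 fold change 0.50, limma adjusted p = 0.0237), the sign opposite to the fit without it. Only in this 1 of 21 alternatives was Serpinb1a called or its sign turned. That fit called 654 of 11747 tested genes higher. Acinar shares tended to be lower in ob/ob, so this covariate cannot be fully separated from genotype. The part of acinar cells in the level of Serpinb1a was not tested.

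**Figure D4:**
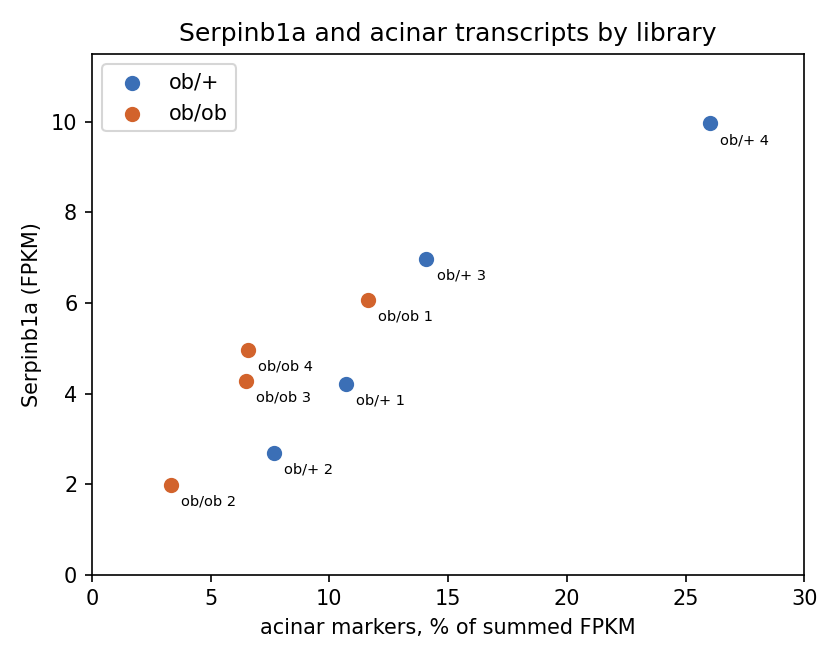
Serpinb1a (FPKM) against the share of summed FPKM in acinar markers (%), 1 point per library. The lowest point is ob/ob 2 (3.33%, 1.98 FPKM) and the highest ob/+ 4 (26.0%, 9.97 FPKM).

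Serpinb9, the intracellular inhibitor of granzyme B, was at 4.69, 3.82, 4.29 and 4.86 FPKM in ob/+ 1 to 4 and at 3.45, 2.67, 4.88 and 4.41 in ob/ob 1 to 4. The groups overlapped (log2 fold change -0.18, 95% interval -0.47 to 0.11, limma adjusted p = 0.410). Its target Gzmb was at or under 0.21 FPKM. The other 15 clade B members were below the filter. Serpinb6b reached 1.36 FPKM in ob/ob 3. Serpinb8 was at 0.08 to 0.30 FPKM, and Serpinb1b, Serpinb1c, Serpinb2, Serpinb3a, Serpinb3d, Serpinb5, Serpinb6c, Serpinb7, Serpinb9b, Serpinb9d, Serpinb10, Serpinb12 and Serpinb13 were at or under 0.10 FPKM. None of 8 tested leukocyte and lysosomal proteases, among them Ctsh and Ctsl, passed the test (limma), and 1 was higher at an unadjusted p under 0.05.

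Serping1, the C1 inhibitor that restrains complement and the contact system, was the second most abundant serpin of ob/+ islets (chromosome 2, 84765387 to 84775444, minus strand). It was at 43.42, 41.08, 43.30 and 53.43 FPKM in ob/+ 1 to 4 and at 39.91, 38.15, 48.64 and 40.55 in ob/ob 1 to 4. The groups overlapped (log2 fold change -0.11, 95% interval -0.33 to 0.11, limma adjusted p = 0.507). Of 10 tested complement and contact genes 1 passed: C1rl, a C1r-like protease, rose from 1.58 ± 0.567 to 2.69 ± 0.433 FPKM (SD, n = 4 each; limma adjusted p = 0.00944). C1ra, a direct target of Serping1, was at 2.39 ± 0.0822 and 1.64 ± 0.587 FPKM (SD, n = 4 each; limma adjusted p = 0.0574).

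Serpine2, or protease nexin-1, inhibits thrombin and plasminogen activators at cell surfaces (chromosome 1, 79794197 to 79861180, minus strand). It was at 6.18, 6.84, 6.72 and 6.92 FPKM in ob/+ 1 to 4 and at 5.92, 5.98, 5.63 and 5.70 in ob/ob 1 to 4. All ob/ob libraries were below all ob/+ libraries, but by little, and the test did not pass (log2 fold change -0.17, 95% interval -0.40 to 0.06, limma adjusted p = 0.316). Serpine3 was at or under 0.21 FPKM. Serpind1, heparin cofactor II, was at 0.21 to 0.60 FPKM in ob/+ and 0.08 to 0.21 in ob/ob, and Serpinc1, antithrombin, was at 0.03 to 0.13 FPKM across the libraries. With no filter on low values Serpind1 passed as lower (log2 fold change -0.31, limma adjusted p = 0.0238), as did 1486 of 17401 genes in that fit. All its values were below the filter and its groups met at 0.21 FPKM, so little weight rests on this call.

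The proteases and cofactors around these inhibitors changed in both directions. Of 15 tested genes of plasminogen activation and coagulation 6 fell (40%) and 2 rose (13.3%), beside 10.6% and 8.21% of all tested genes. Their median log2 fold change was -0.06. F3, the tissue factor that starts clotting, fell from 7.94 ± 1.07 to 2.32 ± 0.553 FPKM (SD, n = 4 each), a log2 difference of -1.44 ± 0.13 (SE; limma adjusted p = 1.79e-08). S100a10, a cell-surface partner in plasmin formation, fell (-0.91 ± 0.13 SE), as did its partner Anxa2, and Lrp1, the receptor that clears serpin-protease complexes, fell from 2.85 ± 0.498 to 1.89 ± 0.488 FPKM (SD, n = 4 each; limma adjusted p = 0.0353). The protein C gene Proc (0.75 ± 0.12 SE) and Hgfac, the activator of hepatocyte growth factor (0.50 ± 0.10 SE), rose.

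**Figure D5:**
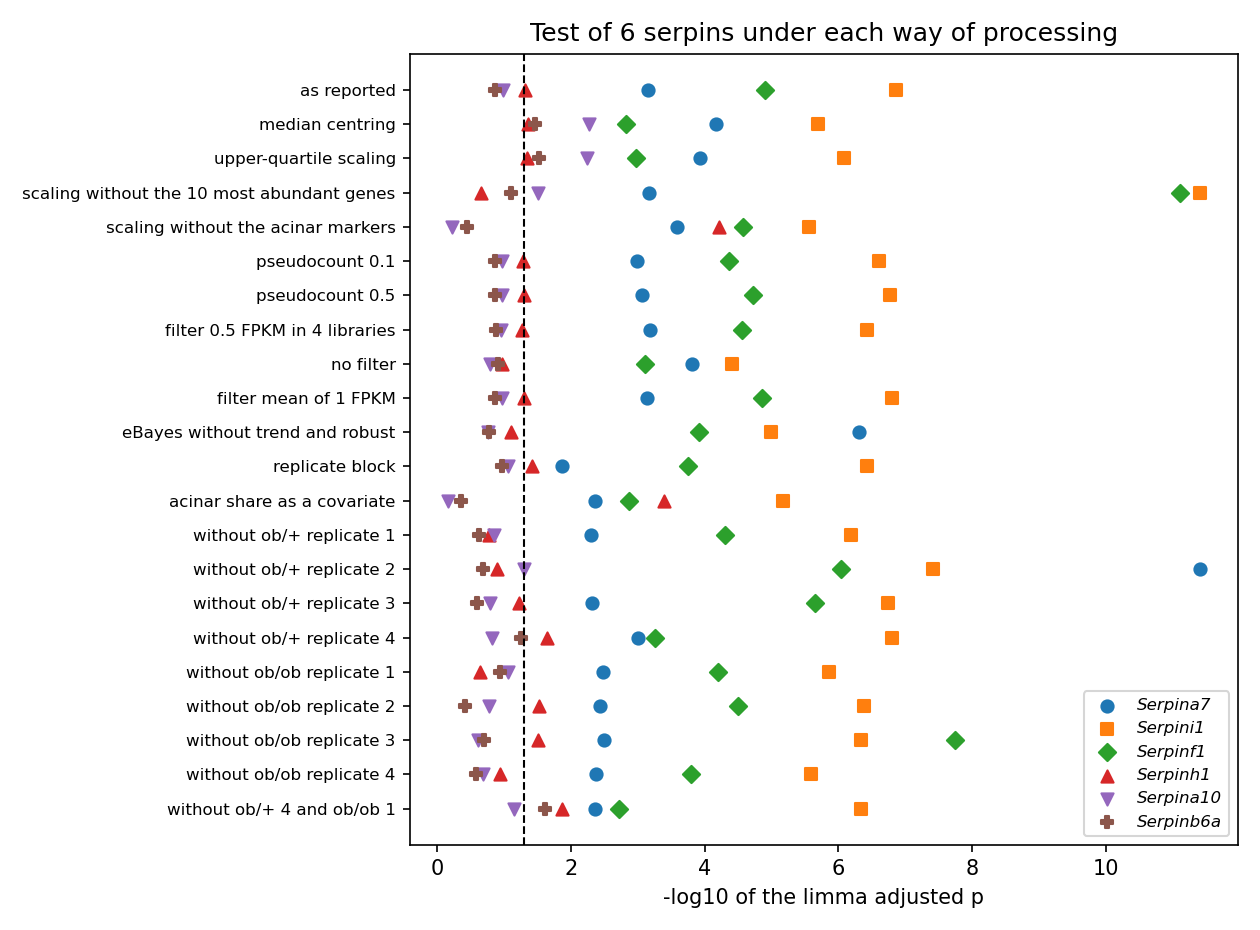
Limma adjusted p as -log10 (larger means smaller p) for 6 serpins under the reported processing and 21 others, 1 row each; the dashed line is the threshold of 0.05. Serpina7, Serpini1 and Serpinf1 lie right of the line in every row, Serpinh1 in the reported fit and 9 of the others, and Serpina10 and Serpinb6a in 3 of the others each.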

How the data were processed

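Of RNA from 8 islet libraries the authors deposited 1 table each of FPKM, a unit inferred here from the values (2 decimals, unequal sums), since neither the labels nor the headers name it. The submitters' processing notes name Trimmomatic 0.36, DESeq2 1.20.0, mm10 and GRCm38 without a role; an aligner or quantifier is not given in these sources. FPKM holds no counts, so count tests were not run. Summed FPKM ran from 820968 to 1004230. Relative depth, roughly estimated from low values, was 0.980 to 1.02. Only values close to each gene's lowest nonzero value entered, which holds the estimate to a narrow range, so it cannot show equal depth. Without read numbers neither the depth nor counting errors can be given. Genes at 1 FPKM in at least 4 libraries were tested with limma 3.58.1 (R 4.3.3, statmod 1.5.0; trend and robust eBayes) on log2(FPKM + 1), which understates changes of low genes; the procedure was tested on simulated data. Positions are from GENCODE M21 (GRCm38). The members and gene lists were chosen with earlier results of these data known. Named were the members (1 is not reported here), up to 4 genes with the smallest p of each list, and neighbours and markers chosen after their values were seen. Alternatives covered scaling, filter, pseudocount, variance model, replicate block, acinar covariate and left-out libraries.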

Additional observations from a re-analysis of the deposited data

How the results depend on the processing

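Between 3 and 6 of the tested serpins were called in each alternative except scaling without the acinar markers, which called 8 (2 higher, 6 lower). Median centring and upper-quartile scaling called 6 each (4 higher, 2 lower), and scaling without the 10 most abundant genes called 4 (3 higher, 1 lower). Serpina7, Serpini1 and Serpinf1 kept their call and direction in all 21 alternatives run, and Serpinh1 kept its direction in all and its call in 9. Leaving out 1 library gave 3 to 5 called serpins. Leaving out both ob/+ 4 and ob/ob 1, the libraries of each genotype richest in acinar transcripts and an alternative chosen after seeing the data, gave 5.

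Over all tested genes 2208 were called (965 higher, 1243 lower). The count was 3429 with median centring (1823 higher, 1606 lower), 3406 with upper-quartile scaling (1784 higher, 1622 lower) and 7612 with scaling without the acinar markers (473 higher, 7139 lower). Scaling without the 10 most abundant genes called 1897 (1276 higher, 621 lower). Left-out libraries gave 1434 (without ob/+ 1) to 4832 (without ob/+ 4), and leaving out both ob/+ 4 and ob/ob 1 gave 4000. Over all tested genes the median change, -0.07 as deposited, was -0.33 with scaling without the acinar markers. Of 124 tested pathway genes 29 were called, beside 2208 of 11747 tested genes. With that scaling 57 of 124 were called, beside 7612 of 11778 tested genes. Leaving out 1 library gave 22 to 40 called of 122 to 124 tested pathway genes. The cause of these shifts was not tested.

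With the replicate number as a block 4 serpins (2 higher, 2 lower) and 2674 of all genes were called, and no serpin call changed. The labels do not say whether the numbers pair the libraries. The deviations of same-numbered libraries correlated at -0.22, 0.21, 0.17 and 0.12, and not every library correlated best with its own number. Correlations this weak among so few libraries cannot decide whether they are paired. Leaving out a replicate keeps at least 3 libraries per genotype. Values of a few hundredths of an FPKM lie near those of single reads, so differences among the lowest serpins were not detectable.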

Other observations

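Serine proteases of the cell membrane and secretory path changed in both directions. Of 13 tested members of that list 3 rose (23.1%) and 2 fell (15.4%), beside 8.21% and 10.6% of all tested genes. Prss23, a secreted serine protease, rose from 5.49 ± 0.615 to 19.5 ± 1.70 FPKM (SD, n = 4 each; limma adjusted p = 1.68e-10). The transmembrane proteases Tmprss4 (log2 fold change 1.06 ± 0.11 SE) and Tmprss2 (1.04 ± 0.13 SE) rose as well, and the matrix proteases Htra3 (-1.03 ± 0.13 SE) and Htra1 (-0.46 ± 0.15 SE) fell. Of 18 tested secreted pancreatic proteases 1 rose (Prss1) and 1 fell (Cela3a). Trypsin genes are close copies, so the separate value of Prss1 is uncertain.

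Of 14 tested protease inhibitors outside the serpin family 2 rose (14.3%) and 1 fell (7.14%), beside 8.21% and 10.6% of all tested genes. Cystatin C (Cst3), a secreted inhibitor of cysteine proteases, rose from 409 ± 12.7 to 514 ± 45.1 FPKM (SD, n = 4 each; limma adjusted p = 0.00567). It was thus more abundant than any serpin here. Cst6 rose (0.46 ± 0.12 SE), and Tfpi, the tissue factor pathway inhibitor, fell from 2.64 ± 0.735 to 1.38 ± 0.416 FPKM (SD, n = 4 each; limma adjusted p = 0.00513), alongside the fall of F3.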
